A study of Homo sapiens with 24 samples.

Results

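The G1 cyclins, CDKs and CDK inhibitors described here are 10 genes whose products drive or brake the passage from G1 into S phase. They were taken by symbol from a table of 27311 gene symbols measured in 24 RNA-seq libraries. The members are the CDK inhibitors CDKN1A, CDKN1B, CDKN1C, CDKN2C and CDKN2D, the cyclins CCND2, CCND3 and CCNE1, and the kinases CDK4 and CDK6. All 10 symbols were found. The choice used no measured value of these libraries, although earlier results on them were known when the genes were chosen.

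The libraries came from K562, an established human erythroleukaemia cell line derived from a chronic myeloid leukaemia in blast crisis, which carries the BCR-ABL1 fusion and expresses fetal and embryonic globins. Cells received an siRNA against GATA1, the zinc finger factor that activates erythroid genes, or a non-targeting siRNA. RNA was taken 48 hours later and read by BRB-seq, a pooled method that counts the 3' ends of polyadenylated transcripts. The siRNA siGATA1-1 (Silencer Select s5593) was used at 25 nM and siGATA1-2 (s5594) at 6.25 nM, and the non-targeting siRNAs siNC-1 and siNC-2 were each used at both doses, with 4 libraries in each of the 6 groups. Each GATA1 siRNA was used at a single dose, so siRNA and dose cannot be told apart between them. All libraries come from 1 cell line, and the sources used here do not say whether replicates were separate cultures, so the p-values measure the spread between libraries, which may be technical.

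D-type cyclins bind CDK4 and CDK6 early in G1, and cyclin E binds CDK2 later. These kinases phosphorylate the retinoblastoma protein, which releases E2F factors and lets S phase genes be transcribed. The INK4 inhibitors (CDKN2 genes) bind CDK4 and CDK6 themselves, while the CIP/KIP inhibitors (CDKN1 genes) bind cyclin-CDK complexes. In the erythroid lineage, cells leave the cycle as they complete maturation, and cyclin D3 is known to set the number of divisions before that exit. K562 is known to have lost the chromosomal segment with CDKN2A and CDKN2B.

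Sequence at the start sites of the members was read from RefSeq promoter entries (build GRCh38.p14), because the results include a fall of CDK4 beside a fall of MYC, whose protein binds the E-box CACGTG. The table held 8 of the 10 members with 13 start sites, and CDKN1C and CCND2 had no entry. The 250 bases before each start were searched on both strands for 4 motifs. These were the E-box, spelled CACGTG, which is its own reverse complement, the GATA motif, spelled AGATAA, the KLF family's CACC-box, spelled CCACACCC, and an E2F motif, spelled TTTCGCGC. No motif contains another. Of 35116 such windows in the table, 6.34% held the E-box, 9.17% the GATA motif, 2.97% the CACC-box and 0.439% the E2F motif. Of the 13 member windows, 3 held a match, and each match was an E-box. They are shown with 10 bases on each side, 5′ to 3′ on the strand of the gene, with the E-box in capitals and the distance from its first base to the start site in the name.
CDK4, 216 bases upstream, chr12:57752511-57752536, minus strand: gtcaagcggtCACGTGtgatagcaac
CDK4, 196 bases upstream, chr12:57752491-57752516, minus strand: agcaacagatCACGTGgctgccatcg
CDK4, 101 bases upstream, chr12:57752396-57752421, minus strand: gggtggcggtCACGTGcccagaacgt
CDKN2C, start 1, 220 bases upstream, chr1:50960515-50960540, plus strand: ttgtgcacctCACGTGgttagtcaca
CDKN2C, start 3, 69 bases upstream, chr1:50970166-50970191, plus strand: gctgaataatCACGTGtgaatcgagg
CDK4 thus had 3 E-boxes in its window, a number reached or passed by 28 of the 35116 windows, or 0.0797%. These windows lie before the RefSeq start, but exons of the same gene in GENCODE 29 (GRCh38) covered 211 of the 250 bases for CDK4, and all 250 for CDKN2C start 3, so part of the searched sequence is transcribed in that annotation. The letters are a description and show no binding in these cells. The count of 3 was taken from CDK4's own window after its fall was seen, and the 35116 windows were not matched for base composition. The share of 0.0797% is thus a description too, and whether MYC had a part in the fall of CDK4 was not tested.

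The check of the knockdown came first. GATA1 was at 307, 308, 242 and 300.3 CPM (counts per 1000000) in the 4 siGATA1-1 libraries, against a lowest, median and highest of 389, 550.4 and 717 CPM in the 8 controls at 25 nM. Here and below, CPM is the count divided by the library's total over tested genes, scaled by edgeR's trimmed mean of M values. The 4 siGATA1-2 libraries held 218, 261, 333 and 165 CPM of GATA1, against 478, 533 and 629.9 CPM (lowest, median and highest) in the 8 controls at 6.25 nM. Every knockdown library was below every control of its dose. GATA1 fell to 0.511 of the controls with siGATA1-1 and to 0.438 with siGATA1-2 (edgeR quasi-likelihood test, Benjamini-Hochberg adjusted p = 3.04e-05 and 5.53e-07).

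Of the 10 members, 8 passed edgeR's filter on low counts and were tested among 6738 genes. A gene was called at an adjusted p under 0.05. In the mean effect, the average of both GATA1 siRNAs, CDKN1C and CCND3 rose and CDK4 fell, so 3 of 8 tested members were called, where 4.48% of all tested genes were. By direction these are 2 members where 2.6% of all tested genes were called higher, and 1 where 1.88% were called lower. With each siRNA alone, CDKN1C rose and no other member was called, beside 0.727% of tested genes called with siGATA1-1 (0.386% higher) and 3.03% with siGATA1-2 (1.75% higher). The median log2 fold change of the 8 tested members was 0.42 in the mean effect, and that of all tested genes was -0.00. Those 8 are not all members: CDKN2D passed the filter largely through knockdown libraries, since 4 of the 5 libraries in which it exceeded the filter's 40.2 CPM were knockdown libraries, and CDKN1A and CCNE1 did not pass. The siGATA1-1 and siGATA1-2 comparisons used different control libraries of the same control siRNAs.

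**Figure D1:**
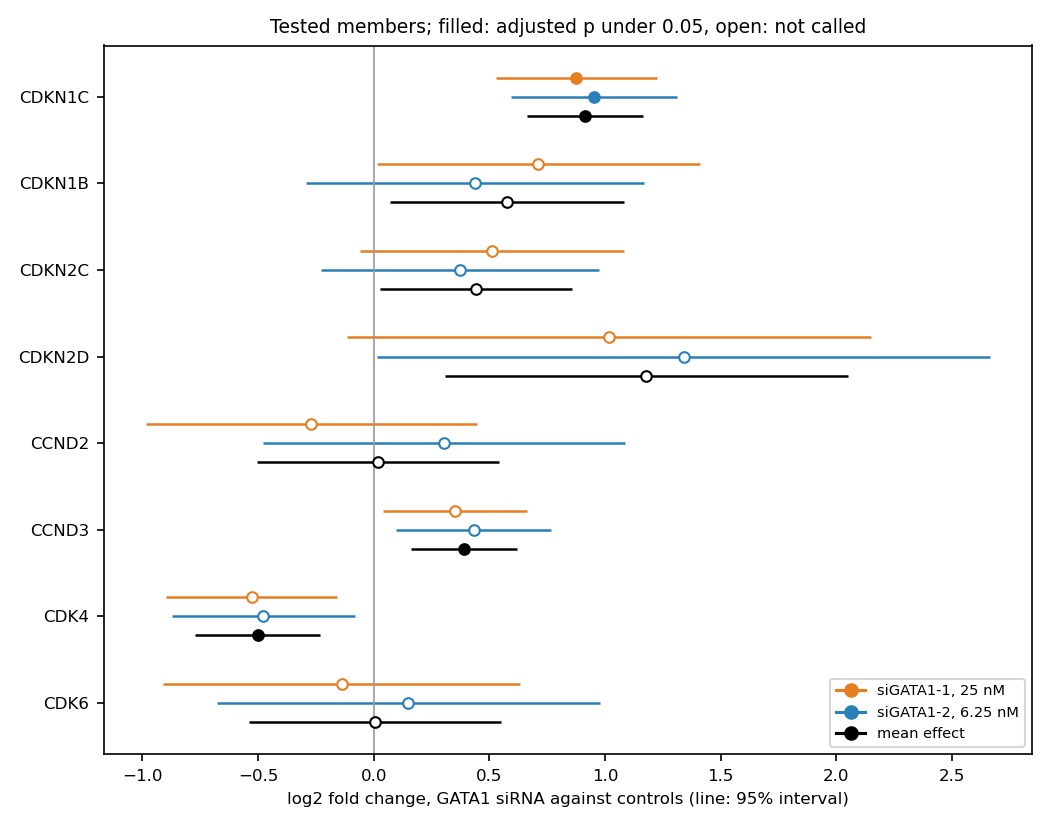
Log2 fold change (horizontal axis) of the 8 tested members with siGATA1-1 at 25 nM (orange), siGATA1-2 at 6.25 nM (blue) and in their mean (black), with 95% intervals as lines, where filled points have an adjusted p under 0.05. CDKN1C is filled in all 3 comparisons, CCND3 and CDK4 in the mean effect, and the intervals of CDKN2D are the widest of the 8.

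Among the CIP/KIP inhibitors, CDKN1C stood at about 1.9 times its control level in the knockdown libraries. It encodes p57, which is imprinted and is known for holding haematopoietic stem cells in quiescence. The siGATA1-1 libraries, replicates 1 to 4, held 543, 386, 637 and 244 CPM of CDKN1C. Their 8 controls held 193, 218, 235 and 213 CPM with siNC-1 and 311, 271, 314 and 229 CPM with siNC-2. Replicates 1, 2 and 3 were above every control, and replicate 4 was inside the control range, although its GATA1 was as low as that of the others. The siGATA1-2 libraries held 523, 537, 531 and 579 CPM of CDKN1C. Their controls held 322, 309, 183 and 331 CPM with siNC-1 and 335, 212, 295 and 250.5 CPM with siNC-2. All 4 siGATA1-2 libraries were above all 8 controls, and they lay close together, with a mean of 543 ± 24.7 CPM (SD, n = 4) where siGATA1-1 gave 453 ± 173 CPM (SD, n = 4). These are bulk samples, so a change in the number of cells expressing a gene and a change in its RNA per cell cannot be told apart.

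CDKN1C rose by a log2 fold change of 0.88 (SE 0.18) with siGATA1-1 and of 0.95 (SE 0.18) with siGATA1-2 (edgeR quasi-likelihood test, adjusted p = 0.00101 and 1.39e-04). The mean effect was a fold of 1.89 (95% interval 1.58 to 2.24, adjusted p = 2.68e-08). Permuting labels over all 495 choices of 4 out of 12 libraries (exact permutation test, two-sided) gave p = 0.0101 for siGATA1-1 and p = 0.00202 for siGATA1-2, the latter the smallest it can give. The effect of siGATA1-2 was 1.06 times that of siGATA1-1, with a 95% interval from 0.741 to 1.5. The 2 control siRNAs did not differ in CDKN1C beyond the threshold at either dose, with siNC-1 at 0.783 of siNC-2 at 25 nM (interval 0.580 to 1.06) and 1.05 of it at 6.25 nM (interval 0.776 to 1.43). The siGATA1-1 call was lost without siGATA1-1 replicate 3 (log2 fold change 0.69, adjusted p = 0.0747) and with siNC-2 as the sole control (0.70, adjusted p = 0.193). The mean effect was called with each of the 24 libraries left out in turn, between 0.82 and 1.03 on the log2 scale.

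CDKN1B, which encodes p27, the CIP/KIP inhibitor that accumulates in resting cells, had a positive estimate that did not pass the test. With siGATA1-1 it was at 54.1, 61.6, 129.7 and 59.5 CPM, against a lowest, median and highest of 13.0, 40.9 and 60.7 CPM in the controls. With siGATA1-2 it was at 74.1, 92.0, 125.0 and 62.4 CPM, against 37.6, 63.1 and 87.9 CPM. The ranges overlapped at each dose. The mean effect on the log2 scale was 0.58 (95% interval 0.07 to 1.08, adjusted p = 0.215, edgeR quasi-likelihood test), and it was 0.41 without siGATA1-1 replicate 3, the highest of its group. CDKN1A, which encodes p21, a CIP/KIP inhibitor induced by cellular stress, was barely detected. It had 70 counts over the 24 libraries, 31 of them in the 8 knockdown libraries and 39 in the 16 controls, and 5 libraries had none. Its level was 15.4 CPM over the pooled knockdown libraries (exact Poisson 95% interval 10.4 to 21.8) and 9.01 CPM over the pooled controls (6.41 to 12.3), as a share of all counts. The intervals cover counting error only. Over libraries, the difference in mean log2 CPM of CDKN1A was 0.78 with siGATA1-1 (exact permutation test, two-sided, p = 0.103) and 0.043 with siGATA1-2 (p = 0.931), a test added after seeing the data, as was that of CCNE1. With so few counts these do not show that the levels were alike.

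**Figure D2:**
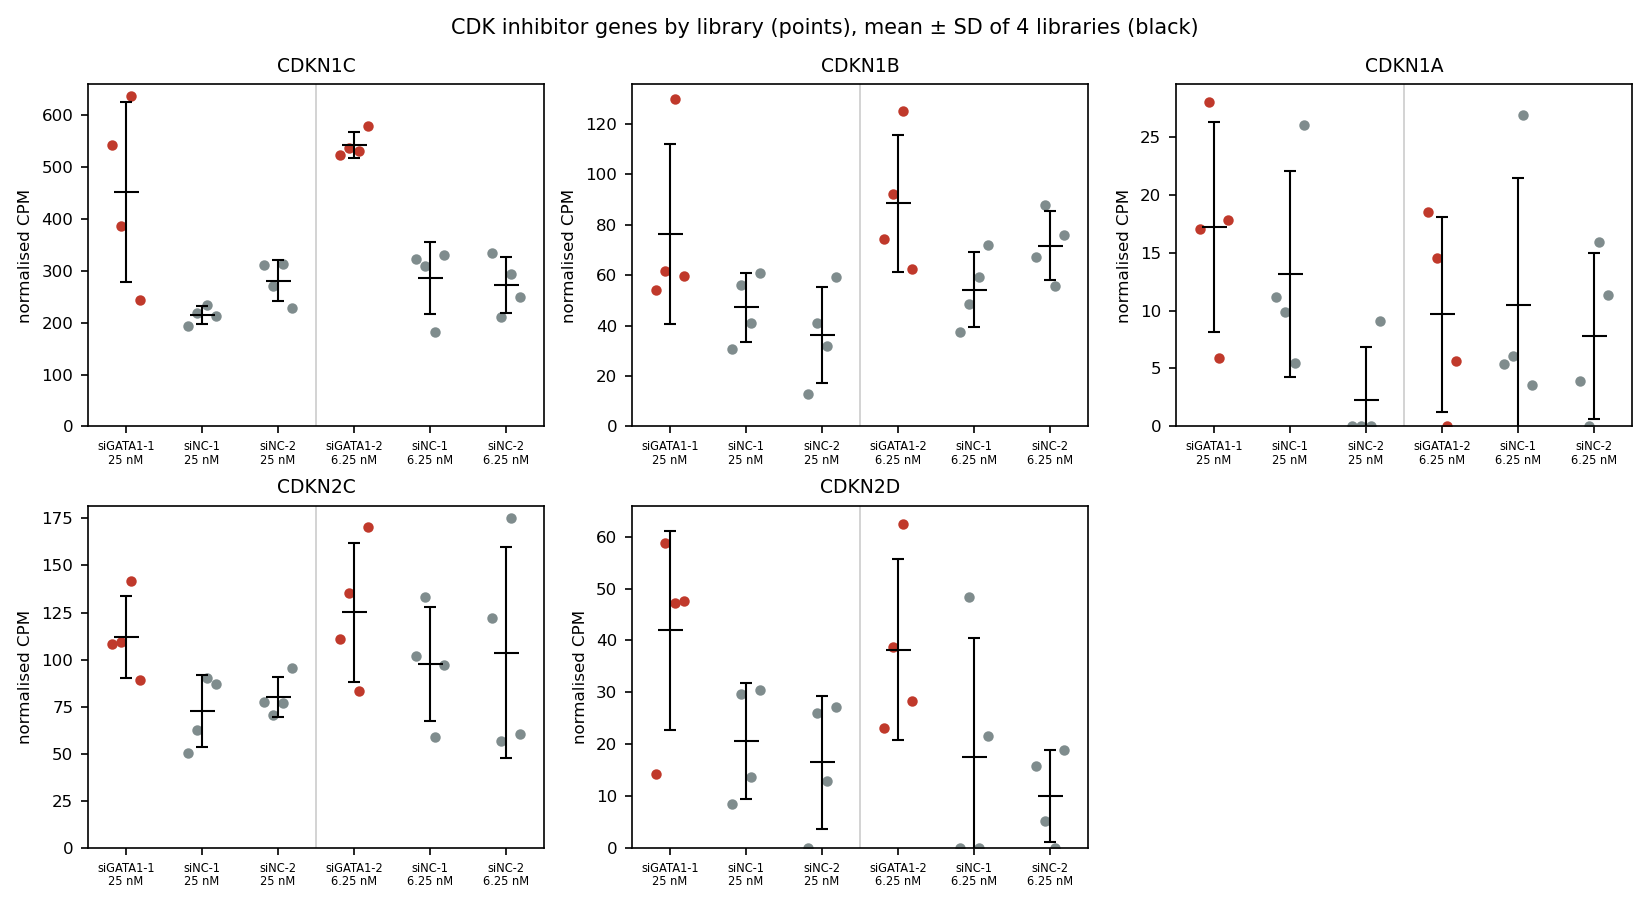
Normalised CPM (vertical axis, from 0) of the 5 CDK inhibitor genes in each of the 24 libraries, by siRNA and dose, with red points for GATA1 siRNAs, grey for controls, with group means and SDs (n = 4) in black, cut at 0. For CDKN1C, 7 of the 8 knockdown libraries lie above all controls of their dose, while the ranges of the other inhibitors overlap.

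Both INK4 inhibitors among the members had positive estimates and were not called. CDKN2C encodes p18, which binds CDK4 and CDK6. It was at 108, 109, 141 and 89.2 CPM with siGATA1-1, against 50.4, 77.3 and 95.4 CPM (lowest, median and highest) in the controls, so 3 of 4 libraries were above all controls of that dose. With siGATA1-2 it was at 111, 136, 83.4 and 170.3 CPM, and the controls, from 56.8 to 175 CPM with a median of 99.6 CPM, covered that whole range. Its mean log2 fold change was 0.44 (95% interval 0.03 to 0.86, adjusted p = 0.255, edgeR quasi-likelihood test).

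CDKN2D, which encodes p19, the INK4 protein known to vary through the cell cycle, had only 150 counts in all. The siGATA1-1 libraries held 5, 21, 8 and 16 counts and the siGATA1-2 libraries 5, 8, 6 and 5, while 4 of the 16 controls had 0 counts. In CPM these were 14.2 to 58.8 and 23.2 to 62.5, against 0 to 30.4 in the controls at 25 nM and 0 to 48.4 in those at 6.25 nM. The groups overlapped at both doses. The mean log2 fold change of 1.18 had a wide interval, from 0.31 to 2.05, and was not called (adjusted p = 0.115, edgeR), but limma voom called it (1.34, adjusted p = 0.0411). CDKN2D passed the count filter largely through the knockdown libraries, so its high estimate is in part a condition of its being tested. Of the remaining INK4 genes, CDKN2A had 0 counts in all 24 libraries, which allows at most 0.473 CPM over the pooled libraries (a one-sided 95% limit of 3 counts, for counting error only). CDKN2B had 11 counts, with 0 in 15 libraries, and where these came from was not tested.

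Among the cyclins, CCND3 rose modestly. It encodes cyclin D3, the D-type cyclin known for its part in erythroid divisions. The siGATA1-1 libraries held 526, 428, 560.1 and 830 CPM of CCND3, against 347, 457 and 579.9 CPM (lowest, median and highest) in their controls. The siGATA1-2 libraries held 440.1, 450.1, 615 and 533 CPM, against 274, 377 and 469.8 CPM. The groups overlapped at both doses, with siGATA1-1 replicate 4, at 830 CPM, farthest from the rest and 2 siGATA1-2 libraries above all of their controls.

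The log2 fold change of CCND3 was 0.35 (SE 0.16, adjusted p = 0.637) with siGATA1-1 and 0.43 (SE 0.17, adjusted p = 0.170) with siGATA1-2, neither of them called by edgeR. The mean effect was 0.39 (95% interval 0.16 to 0.62, adjusted p = 0.0297), a fold of 1.31. Exact two-sided permutation tests gave p = 0.152 at 25 nM and p = 0.0202 at 6.25 nM. In the controls CCND3 was 1.23 times as high at 25 nM as at 6.25 nM (95% interval 1.02 to 1.49, adjusted p = 0.302, edgeR), and each GATA1 siRNA was set against controls of its own dose. The call was lost without siGATA1-1 replicate 4 (0.29, adjusted p = 0.221), siGATA1-2 replicate 3 (0.34, adjusted p = 0.0941), siGATA1-2 replicate 4 (0.37, adjusted p = 0.0723) or siNC-2 6.25 nM replicate 6 (0.36, adjusted p = 0.0583). It was also lost with no filter on low counts (0.37, adjusted p = 0.0876) and with siNC-2 as the sole control (0.34, adjusted p = 0.199).

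CCND2, the other D-type cyclin of blood cells among the members, had a mean log2 fold change of 0.02, with an interval from -0.51 to 0.54 that leaves room for a change of the size of that of CCND3. Its libraries spread from 12.95 to 102 CPM, and its estimates had opposite signs with the 2 siRNAs, -0.27 (SE 0.36) for siGATA1-1 and 0.30 (SE 0.39) for siGATA1-2. Their difference was not called (adjusted p = 0.993, edgeR). CCNE1, which encodes the cyclin E that activates CDK2, had 81 counts over the 24 libraries, and 6 libraries had none. Pooled, it stood at 10.9 CPM in the knockdown libraries (exact Poisson 95% interval 6.83 to 16.5) and 13.6 CPM in the controls (10.4 to 17.6), as a share of all counts. Over libraries, the difference in mean log2 CPM of CCNE1 was -0.26 with siGATA1-1 and -0.29 with siGATA1-2 (exact permutation test, two-sided, p = 0.659 and 0.604).

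**Figure D3:**
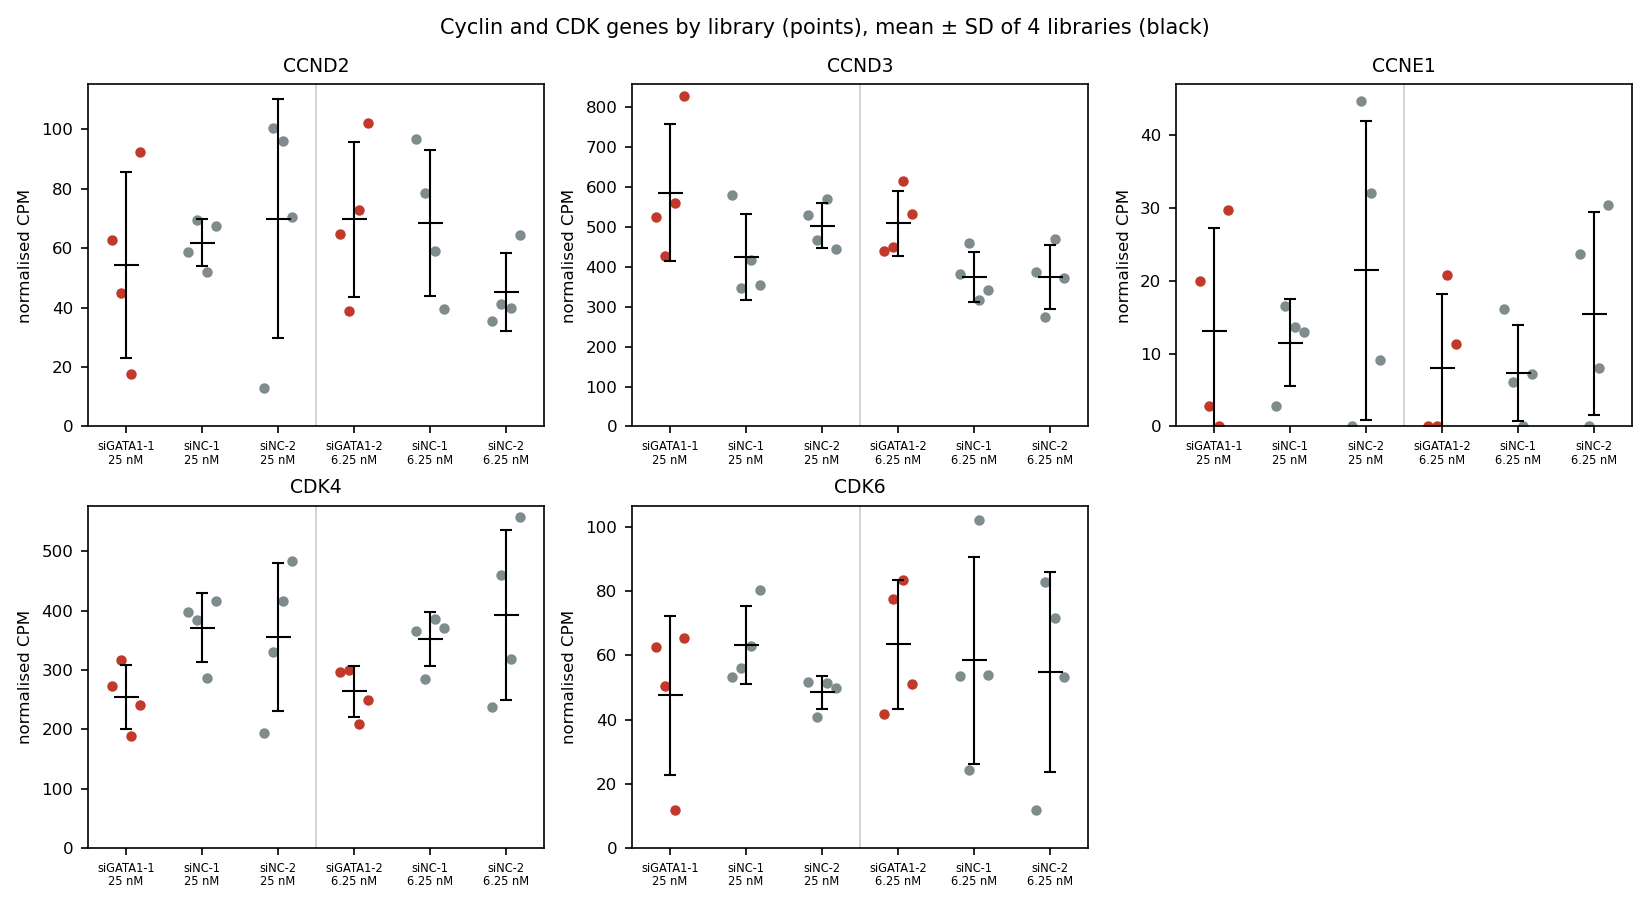
Normalised CPM (vertical axis, from 0) of the cyclin and CDK genes in each of the 24 libraries, by siRNA and dose, with red points for GATA1 siRNAs, grey for controls, with group means and SDs (n = 4) in black, cut at 0. CDK4 is below the control median in all 8 knockdown libraries, with overlap at its lowest controls, and the knockdown and control ranges of CCND2, CCNE1 and CDK6 overlap at both doses.

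Of the kinases, CDK4 fell and CDK6 did not pass the test. CDK4 is the main partner of the D-type cyclins in most cells and a known target of MYC. It was at 273, 316, 189 and 241 CPM with siGATA1-1, against 194, 391 and 484 CPM (lowest, median and highest) in the controls at 25 nM. With siGATA1-2 it was at 296, 300.1, 208 and 249.7 CPM, against 237, 368 and 558 CPM in the controls at 6.25 nM. All 8 knockdown libraries were below the median of their controls, and 1 of 4 was below all controls at each dose. The lowest control at 25 nM, siNC-2 replicate 1, is the shallowest library of all and had 15 counts of CDK4.

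CDK4 fell by 0.50 (log2, SE 0.14) in the mean effect (adjusted p = 0.0146, edgeR quasi-likelihood test), to 0.706 of the controls (95% interval 0.585 to 0.852). The single siRNAs gave -0.53 (SE 0.19, adjusted p = 0.323) and -0.48 (SE 0.20, adjusted p = 0.203), neither of them called by edgeR, and the exact permutation p was 0.0687 and 0.0586. The call was lost without siGATA1-1 replicate 3 (-0.46, adjusted p = 0.0508) and with siNC-1 as the sole control (-0.46, adjusted p = 0.0970). The exons of CDK4 overlap those of TSPAN31 on the opposite strand in GENCODE 29, and the sources used here do not say whether counting used strand. TSPAN31 itself had 219 counts over all libraries, where CDK4 had 2075, and a mean log2 fold change of -0.10 (SE 0.35, adjusted p = 0.932). Exons of CCND3 and CDKN1A also overlap those of a gene on the opposite strand (AL513008.1 and DINOL), and exons of CCND2 those of AC008012.1 on the same strand. These 3 symbols had no row among those analysed here, so reads from them cannot be told apart from those of the members. CDK6, the kinase partner known for delaying erythroid maturation when it stays high, had a mean log2 fold change of 0.0056, with an interval from -0.54 to 0.55, and libraries from 11.8 to 102 CPM.

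The balance of inhibitor to kinase was read within each library as a ratio of counts, which needs no scaling between libraries. The level of the ratio depends on how the 3' end of each gene is captured, so only its change between groups is described. CDKN1C counts per CDK4 count were 1.99, 1.22, 3.38 and 1.01 with siGATA1-1 and 1.77, 1.79, 2.55 and 2.32 with siGATA1-2. The 16 controls had a lowest, median and highest of 0.449, 0.786 and 1.60. All 4 siGATA1-2 libraries were above every control, and 2 of the siGATA1-1 libraries were inside the control range, whose top at 25 nM is again the shallowest library. For CDKN1C per CCND3, siGATA1-1 ranged from 0.294 to 1.14, against 0.333 to 0.629 in the controls at 25 nM. With siGATA1-2 the range was 0.864 to 1.19, against 0.576 to 0.968 in the controls at 6.25 nM. In siGATA1-1 replicate 4, where CDKN1C was lowest of its group and CCND3 highest, that ratio was below every control. These ratios combine genes already described as called, and no test was made of them.

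**Figure D4:**
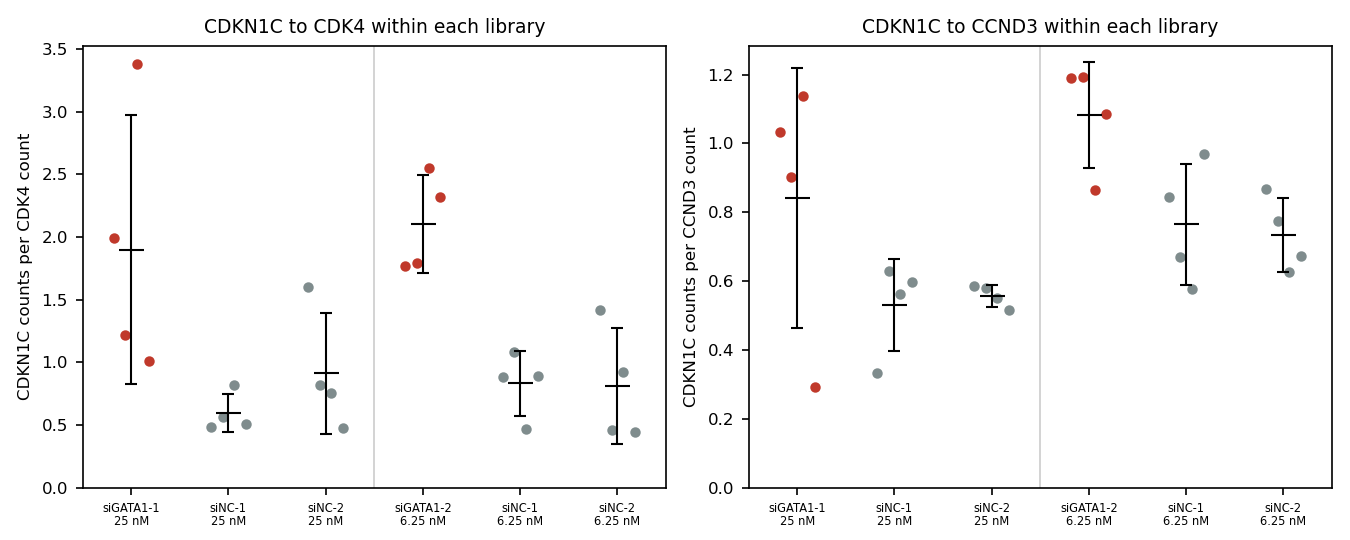
CDKN1C counts divided by CDK4 counts (left) and by CCND3 counts (right) in each of the 24 libraries, by siRNA and dose, with red points for GATA1 siRNAs, grey for controls, with group means and SDs (n = 4) in black. The 4 siGATA1-2 libraries have at least 1.77 CDKN1C counts per CDK4 count while no control exceeds 1.60, and siGATA1-1 replicate 4 has the lowest CDKN1C to CCND3 ratio of all, 0.294.

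Genes around the members were described as lists. Of 39 other genes of G1 and S phase entry, 24 were tested and 0 were called in the mean effect by edgeR, with 7 at an unadjusted p under 0.05, where 16.6% of all tested genes reached that, and their median log2 fold change was -0.18. The 7 were CDC25A (-1.16), a phosphatase that activates CDK2, TFDP1 (-0.79) and E2F1 (-0.76), which form the E2F heterodimer, PKMYT1 (-0.66), E2F4 (-0.62), CDK2 (-0.50) and CCNA2 (-0.39). They were named after their values were seen, and each had a negative estimate that missed the adjusted threshold. With siGATA1-1, 0 of the 24 were under an unadjusted p of 0.05 (6.38% of all tested genes were), and with siGATA1-2 6 were (15.8%), with 0 called by edgeR in either comparison. CDC25A was at -0.20 with siGATA1-1 and -2.11 with siGATA1-2, TFDP1 at -0.19 and -1.40, and E2F1 at -0.36 and -1.16, so their mean values rest largely on siGATA1-2. Between the effects of the siRNAs, 0 of the 24 were called by edgeR and 2 were under an unadjusted p of 0.05, beside 4.94% of all tested genes. Of 24 genes of S phase and mitosis, 23 were tested and 0 were called by edgeR in the mean effect. In it 4 had an unadjusted p under 0.05, a share near the 16.6% of all tested genes, and the median was -0.14. The 4 were MCM2 (-0.83), a subunit of the replicative helicase, CDT1 (-0.41), which loads that helicase, PLK1 (-0.40) and CDK1 (-0.36), both mitotic kinases. With siGATA1-1, 2 of the 23 were under an unadjusted p of 0.05 (edgeR), and the median was -0.02. With siGATA1-2, 6 were, and the median was -0.25. The summed level of the list was 2761 to 3272 CPM with siGATA1-2, below all controls at 6.25 nM (3426 to 4011 CPM). With siGATA1-1 it was 3303 to 3602 CPM, inside the control range at 25 nM (3108 to 4072 CPM). The sums were not tested. In the mean effect MKI67, a proliferation marker of this list, had a log2 fold change of 0.11 (SE 0.21) and PCNA, the replication clamp, 0.17 (SE 0.19). Both were named after their values were seen, neither was called, and their sign is opposite to the list's median. They do not show that proliferation was unchanged.

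Of 25 transcription factors known to act on G1 genes, 21 were tested, and their median was 0.02. In the mean effect 2 rose and 2 fell, where 2.6% of all tested genes were called higher and 1.88% lower. MYC, the E-box factor, was at 92.6, 154 and 281 CPM (lowest, median and highest) in the 8 knockdown libraries against 127, 272 and 397 CPM in the 16 controls. MYC fell by 0.72 (log2, SE 0.16) in the mean effect (adjusted p = 0.00191, edgeR) and was not called with either siRNA alone (-0.75, adjusted p = 0.122, and -0.69, adjusted p = 0.107). KLF1, the erythroid activator that GATA1 is known to switch on, ranged from 34.1 to 232 CPM in the knockdown libraries and from 247 to 468 CPM in the controls, without overlap, and fell by 1.43 (SE 0.16, adjusted p = 2.08e-11). SPI1, the myeloid factor PU.1, rose by 0.95 (SE 0.14, adjusted p = 1.19e-07), from 109 to 335 CPM in the controls to 271 to 613 CPM in the knockdown libraries. BCL6, a transcriptional repressor best known in germinal centre B cells, rose by 1.24 (SE 0.25, adjusted p = 2.67e-04, edgeR) on a mean of 18.5 counts per library.

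CDKN1C lies in an imprinted cluster, and 8 of 11 genes of that neighbourhood were tested. In the mean effect 1 of the 8 was called higher, where 2.6% of all tested genes were. H19, a maternally expressed non-coding RNA from the same chromosome region, rose by 1.26 (SE 0.39, adjusted p = 0.0382, edgeR) on a mean of 8.63 counts per library, and its libraries overlapped, from 10.4 to 149 CPM with knockdown and from 0 to 77.7 CPM in controls. The H19 call was lost with 10 of the 24 libraries left out in turn, its estimate falling to 0.88 (adjusted p = 0.321) without siGATA1-2 replicate 4. KCNQ1OT1, the paternally expressed non-coding RNA known for silencing CDKN1C in cis, was not called (0.39, SE 0.18, adjusted p = 0.238). The other 6 tested neighbours were not called, and the median of the 8 was -0.01.

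**Figure D5:**
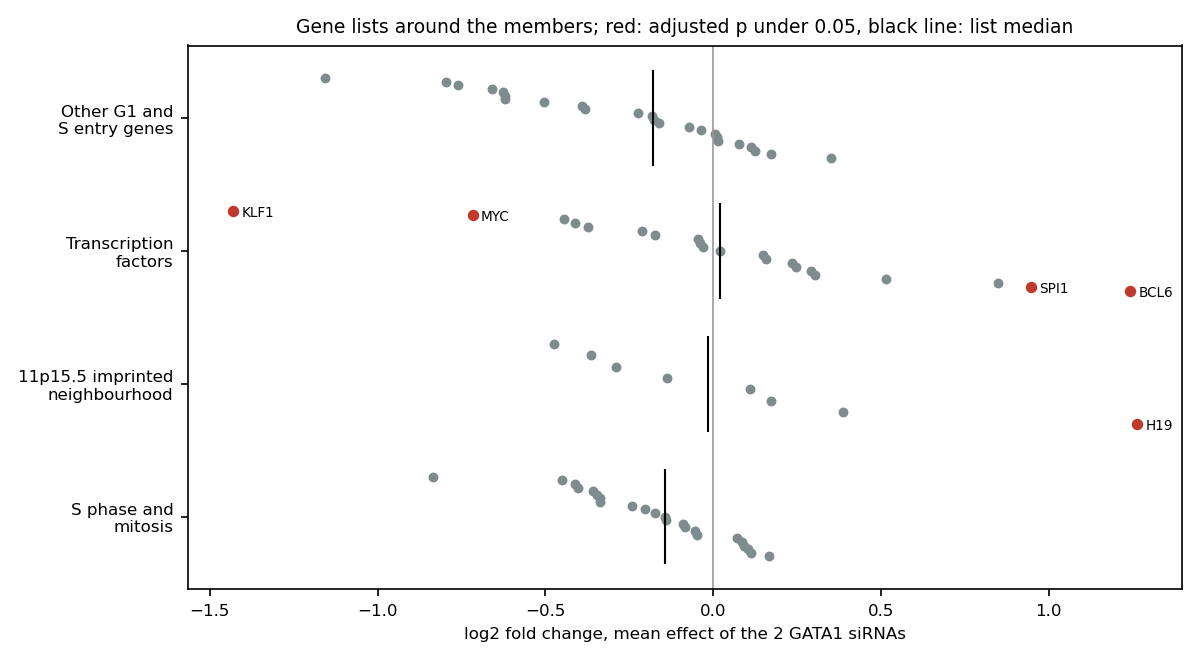
Log2 fold change in the mean effect (horizontal axis) for each tested gene of the 4 lists around the members, where the called genes are red and named and list medians as black lines. The S phase and other G1 lists hold no red point, and KLF1, MYC, SPI1, BCL6 and H19 are the called genes.

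The genes most alike to each called member were taken as the 3 with the highest Pearson correlation of log2 CPM over the 24 libraries. For CDKN1C they were GLUL (0.81), CD52 (0.79) and ITM2A (0.75), and for CCND3 they were CFD (0.77), IFITM1 (0.76) and LAPTM5 (0.72). For CDK4 they were FAM222B (0.77), PRKAR2B (0.75) and GAL (0.74). The libraries share depth differences and the knockdown itself, so these values are a description.

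Markers of cell types were read beside these changes. The 12 erythroid markers, which K562 is known to express, were all detected and include KLF1, described above. In the mean effect 10 of the 12 fell, where 1.88% of all tested genes were called lower. The summed level of the 12 was 13337 to 19629 CPM in knockdown libraries and 20104 to 31560 CPM in controls. Of the 10 myeloid markers, 4 of the 5 tested rose, where 2.6% of all tested genes were called higher. These were AIF1, LYZ, TYROBP and SPI1, which is also described above. The summed level of the 10 was 904 to 1680 CPM in knockdown libraries against 414 to 868 CPM in controls. The granule genes MPO and ELANE had 0 counts in all libraries. The call of LYZ (0.51, adjusted p = 0.0422, edgeR) was lost with 13 of the 24 libraries left out in turn. Both sums separate knockdown from control libraries without overlap, as CDKN1C does at 6.25 nM. The erythroid sum also separated the control doses, with 20104 to 25547 CPM at 25 nM and 26080 to 31560 CPM at 6.25 nM. At 25 against 6.25 nM in the controls, 1 erythroid marker was called higher and 2 lower, where 1.41% of all tested genes were called. The part of either sum in the changes of CDKN1C, CCND3 and CDK4 was not tested. Of the 9 megakaryocyte markers, 1 was tested and 0 were called by edgeR, with 0 at an unadjusted p under 0.05. The summed level of that list was 25.6 to 59.5 CPM with knockdown and 22.4 to 117 CPM in controls, and GP9, GP1BA, GP1BB and PF4 had 0 counts in all libraries. Of 7 lymphoid markers 2 were tested and not called. Of 8 epithelial or fibroblast markers 4 were tested and EPCAM fell (-0.91, SE 0.22, adjusted p = 0.00428, edgeR), where 1.88% of all tested genes were called lower.

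Comparisons without GATA1 siRNA gave the background for the members. Between siNC-1 and siNC-2, edgeR called 0 genes at either dose, which is 0% of tested genes, with 86 at an unadjusted p under 0.05 at 25 nM and 203 at 6.25 nM. Between the doses in the controls, 1.41% of tested genes were called and no member was. The difference between the effects of the 2 GATA1 siRNAs is not such a background, since it uses the knockdown libraries. For it edgeR again called 0 genes, with 333 at an unadjusted p under 0.05, none of which was a member. The library totals behind these values ran from 88290 to 473098 counts, and the members' mean counts per library ran from 2.92 for CDKN1A to 114 for CCND3, which limits what could be seen for CDKN1A, CCNE1 and CDKN2D.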

How the data were processed

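K562 cells were transfected with an siRNA, and 24 BRB-seq libraries were made in 6 groups of 4, per the labels' protocols. The submitters' processing notes name STAR 2.5.6b and the build hg19. The sources used here do not give the counting program, annotation, use of strand or collapsing of molecular identifiers. Raw, unnormalized counts per gene symbol were deposited by the authors. Totals ran from 88290 to 473098 counts per library.

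A single edgeR 4.0.16 model (R 4.3.3) held all 24 libraries, with a mean for each group, trimmed mean of M values scaling, filterByExpr (minimum count 10, minimum total 15) and the robust quasi-likelihood F test. Each GATA1 siRNA was compared with the mean of both control siRNAs at its dose, and the mean effect averages these comparisons. Standard errors are the log2 fold change divided by the square root of F. Adjusted p-values are Benjamini-Hochberg over 6738 tested genes, which held 93.7% of counts. Exact permutation tests used log2 CPM with a prior count of 2.

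The members, lists and comparisons were chosen with earlier results of these data known. All members were named. From each list, genes called in the mean effect or with either siRNA were named, and other list genes were chosen after their values were seen. Erythroid and megakaryocyte, myeloid, lymphoid, and epithelial or fibroblast markers were also listed. Spreadsheet software had turned 27 symbols, with 0.123% of counts, into dates, and none of these is named. A further list of genes is not reported here. Among 36 replicate pairs, 0 were identical, and the chi-square per degree of freedom between counts was 1.83 to 3.35, above sampling noise. Alternatives were DESeq2 1.42.0, limma 3.58.1 voom, other size factors, no filter, other control sets, a replicate block and leaving out each library. Leaving out the 3 libraries under 150000 counts was chosen after seeing the data.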

Additional observations from a re-analysis of the deposited data

Results flagged for a closer look

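The 4 libraries of each group were examined for each of the 10 members, 60 sets in all, for a highest or lowest library far from the others. Of these, 5 sets had one. For normally distributed values the cut gives about 1 in 20, a rate that need not hold for low counts such as those of CDKN1A. CDKN1C in siNC-1 6.25 nM replicate 7 was lowest, at 183 CPM where the other 3 lay between 309 and 331 CPM. CDKN1A in the same library was highest, at 26.8 CPM against 3.6 to 6.05 CPM, on 5 counts. CDKN1A in siNC-2 25 nM replicate 4 was highest, at 9.08 CPM, from 4 counts where the other 3 had 0. CDKN1B in siGATA1-1 replicate 3 was highest, at 129.7 CPM against 54.1 to 61.6 CPM. CDK6 in siNC-2 25 nM replicate 2 was lowest, at 40.9 CPM against 49.95 to 51.8 CPM.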

How the results depend on the processing

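CDKN1C kept its direction and its call in the mean effect and with siGATA1-2 under every alternative run. With siGATA1-1 it lost the call with siNC-2 as the sole control, which left 0 members called, and without siGATA1-1 replicate 3. Against all 16 controls, siGATA1-1 called 2 members, the second being CCND3 (0.50, adjusted p = 0.0385). MYC, KLF1, SPI1, BCL6, AIF1, TYROBP and EPCAM kept their calls in the mean effect in all runs. H19 and LYZ lost theirs in 10 and 13 of the 24 fits without 1 library. Both calls were also lost with no filter on low counts (edgeR adjusted p = 0.0557 for H19 and 0.0950 for LYZ). The same held with siNC-1 alone (0.0532 and 0.223) and with siNC-2 alone (0.269 and 0.0820). Numbers of genes called depended more on the settings. For siGATA1-1, edgeR called 49 genes, against 82 when only its own groups were fitted, 31 with siNC-1 alone, 27 with siNC-2 alone and 117 against all 16 controls. For siGATA1-2 it called 204, against 129 when only its own groups were fitted and 99 with siNC-1 alone. In the mean effect it called 302, against 177 with siNC-1 alone and 184 with siNC-2 alone. The comparisons with 1 control siRNA used fewer control libraries and also another reference level, and these cannot be told apart. The cause of the differing numbers was not tested. Leaving out 1 library gave 21 (without siGATA1-1 replicate 4) to 52 genes and 0 to 1 members for siGATA1-1, 118 (without siGATA1-2 replicate 4) to 309 genes (without siGATA1-2 replicate 2) for siGATA1-2, and 198 (without siGATA1-1 replicate 4) to 361 genes for the mean effect.

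Estimates near 0 changed sign. The mean effect of CCND2 was -0.026 with limma voom, -0.0017 with no filter, -0.045 with siNC-1 alone, -0.054 without the 3 shallow libraries and -0.15 to 0.13 with 1 library left out. That of CDK6 was -0.010 with no filter, -0.13 with siNC-1 alone, -0.015 without the 3 shallow libraries and -0.084 to 0.13 with 1 library left out. For siGATA1-1, CDK6 was 0.063 with siNC-2 alone and -0.30 to 0.11 with 1 library left out, and for siGATA1-2 it was -0.032 to 0.34. DESeq2 gave no adjusted p for CDKN2D with siGATA1-1. All 16 controls and only the groups compared give the mean effect by construction, so they were not run for it.

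With a replicate block, siGATA1-1 called 50 genes (26 higher and 24 lower) and CDKN1C was at 0.83 (adjusted p = 0.00143, edgeR); no member's call changed. The block was run for the 25 nM comparison alone, since siGATA1-2 shares no replicate numbers with its controls. Of 12 same-numbered pairs in the 25 nM groups, 2 correlated over 0.1 in their deviations (range -0.087 to 0.258), and 4 of 12 libraries correlated best with their own number. Over all groups, 4 of 28 same-numbered pairs and 5 of 212 pairs with other numbers were over 0.1. The highest values were alike, 0.258 and 0.26, and whether the numbers mark a pairing was not tested. CDKN1A, CCNE1 and CDKN2D, at under 10 counts per library on average, are limited by depth.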
